A study of Gallus gallus with 12 samples.

Results

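A group of 28 of the 18260 mRNAs (0.153%) in the liver of Luhua hens was lower at peak laying (PL, day 220) and at broodiness (BP, day 400) than at the juvenile stage (JP, day 60) and at sexual maturity (SM, day 133). The 28 transcripts were chosen by their stage means of log2(FPKM + 1), where FPKM is the number of sequenced fragments given to a transcript, divided by its length and by the size of the library. The lower of the JP and SM means had to exceed the higher of the PL and BP means by at least 1, which is called the gap here, and the means of JP and SM, and those of PL and BP, had to differ by less than 1. Liver RNA depleted of ribosomal RNA was sequenced from 12 female birds of this indigenous Chinese breed, 3 at each stage and 1 library for each bird. The stages differ in age as well as in reproductive state. Every stage entered the choice, so that the levels of the 28 mRNAs at the stages, and the counts of calls among them given further on, are a description and support nothing.

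The liver of the hen makes most of the lipid and the protein precursors of egg yolk. At sexual maturity oestrogen from the ovary turns on the hepatic synthesis of vitellogenins and of the apolipoproteins of very low density lipoprotein, and a laying hen exports them in large amounts to the growing follicles. A broody hen stops laying, its ovary regresses and prolactin in its blood is high. The deposited values are listed by Ensembl transcript, and 0 of the 18260 transcripts could be given a gene symbol from the reference names used here, so that the function of the members is not described and the markers of hepatocytes and of other cells of the liver were not analysed. Transcripts of 1 gene may share reads, and which members belong to 1 gene is not known here.

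The libraries fell into 2 sets. FPKM summed over all mRNAs was 408296 to 539529 in livers of JP and PL and 688208 to 772041 in livers of SM and BP. Median-ratio scaling divides a liver by a single factor, the median over mRNAs of its FPKM relative to their geometric mean, and this factor was 0.69 to 1.04 for JP and PL and 1.02 to 1.26 for SM and BP. The sets are inferred from the summed FPKM, whose ranges do not overlap, and no label names them. Each set is made up of whole stages, so a difference between libraries and one between stages cannot be told apart here. The ranges of the factor overlap. The share of reads mapped that the authors list was also higher in every JP and PL liver than in every SM and BP liver. PL and BP stand in different sets, as do JP and SM, so each set holds a later and an earlier stage for the members. The difference of PL from JP and that of BP from SM were therefore read within a set, in livers that the other comparison did not use. The scale was not equal within a set, however. Summed FPKM was 408296 to 478988 in PL livers and 516697 to 539529 in JP livers. In the other set the later stage was the higher, with 741757 to 772041 in BP livers and 688208 to 727595 in SM livers.

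Every member kept a mean of at least 0.157 FPKM over the PL and BP livers, though single livers of some members lay under 0.1 FPKM. The mean FPKM over the 6 PL and BP livers was 23.3% of that over the 6 JP and SM livers in the median member, and it ranged from 6.0% to 41.0%. Of the 28 mRNAs, 4 kept under 10% of the earlier level, 15 under 25% and 13 at least 25%. A mean under 1 FPKM at PL and BP was found for 5 members. At JP and SM there were 0 such members, which the rule itself fixes, since a gap of 1 after adding 1 needs at least 1 FPKM at these stages. A value of 0 was listed in 2 of the 336 values of the members, both of 1 transcript. In whole tissue, fewer cells of a type and less RNA per cell cannot be told apart.

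The rule also sets a floor under the level of the members at JP and SM, so their ranks there are a description. The mean FPKM over the PL and BP livers ranged from 0.157 to 1139 with a median of 5.23, and over the JP and SM livers from 2.61 to 5444 with a median of 17.2. Ranked among all mRNAs in the table, the median member lay at the 64.3rd percentile by its PL and BP mean and at the 84.3rd by its JP and SM mean. By the JP and SM mean, the members ranged from the 50.8th to the 99.9th percentile.

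In each liver, the median of log2(FPKM + 1) over the 28 members averaged 4.02 ± 0.26 (SD, n = 3 livers) for JP, 4.03 ± 0.37 for SM, 2.01 ± 0.60 for PL and 2.26 ± 0.08 for BP. The median over the 16703 mRNAs tested (FPKM above 0.1 in at least 3 livers, which all 28 members passed) averaged 1.78 ± 0.11 for JP, 2.24 ± 0.04 for SM, 1.75 ± 0.23 for PL and 2.08 ± 0.08 for BP. The median member stood above the median mRNA in all 12 livers, and came closest to it in PL replicates 1 and 2 and BP replicates 1 and 3.

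**Figure D1:**
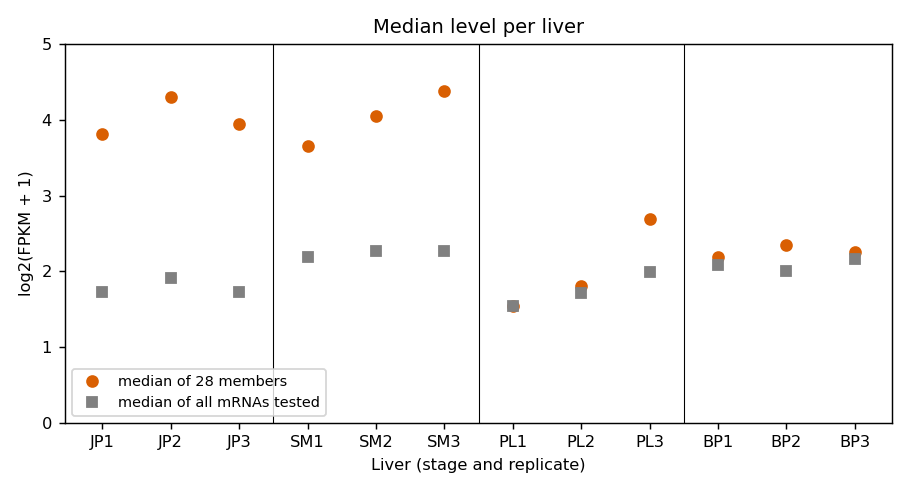
Median of log2(FPKM + 1) in each of the 12 livers (x axis, by stage and replicate) over the 28 members (circles) and over all 16703 mRNAs tested (squares). The members' medians lie between 1.55 and 2.69 in PL and BP livers and between 3.65 and 4.38 in JP and SM livers.

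The mean of the 6 PL and BP livers was below that of the 6 JP and SM livers by a median of 1.75 on the log2(FPKM + 1) scale (differences of -3.56 to -1.20, median -1.75). The gap was at least 2 for 5 members, at least 1.5 for 9 and under 1.5 for 19, and its median was 1.35. The threshold cut through a continuous range. The members just inside it had gaps of 1.05, 1.06 and 1.07, and the transcripts just outside it had gaps of 0.99, 0.99 and 0.99. In all, 13 mRNAs had a gap between 0.9 and 1 with both pairs of stages less than 1 apart, these 3 included. Of 39 mRNAs with a gap of at least 1, 11 were left out because a pair of stages differed by 1 or more, namely JP and SM for 4, PL and BP for 6 and both pairs for 1. The mirrored rule, higher at PL and BP, was met by 30 mRNAs.

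**Figure D2:**
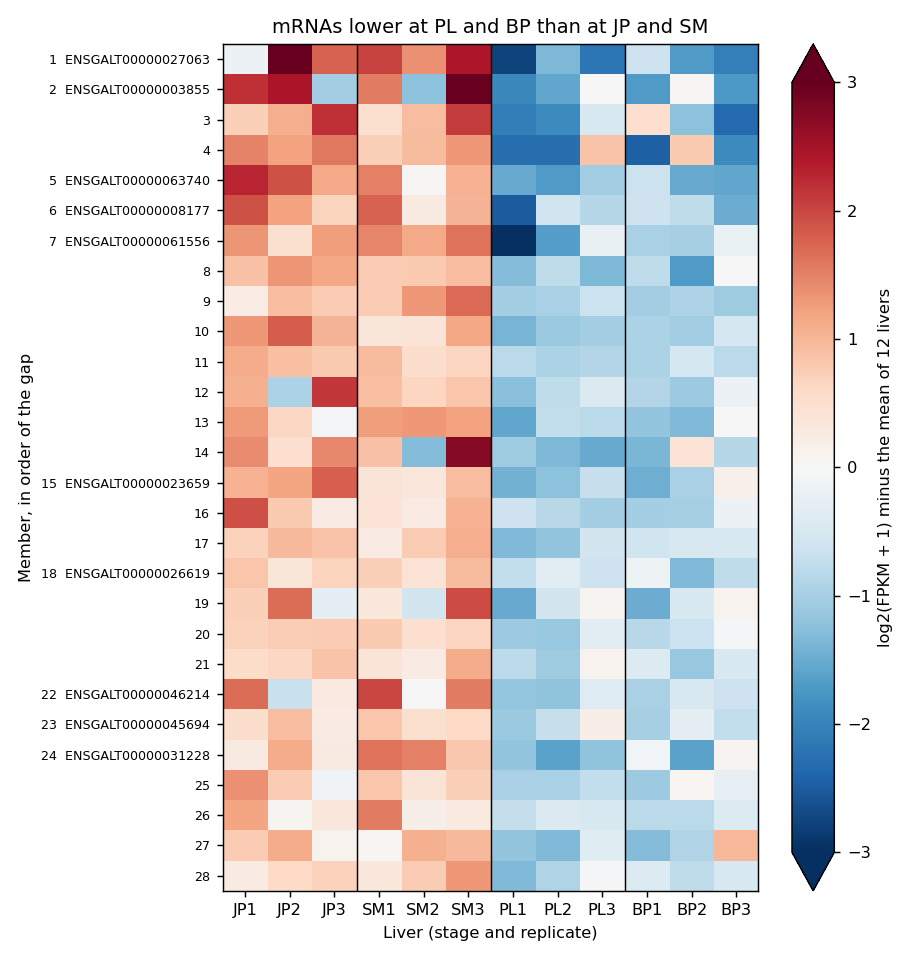
log2(FPKM + 1) of the 28 members (rows, in order of the gap) in the 12 livers (columns), minus the mean of each member over the livers. Rows with an identifier are those named in the text, and colours end at 3 below and 3 above the mean. Most PL and BP cells are blue and most JP and SM cells red, with single livers of the opposite colour in some rows, such as 2, 4, 12, 14, 22 and 27.

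ENSGALT00000027063 had the largest gap, 3.08. Its FPKM was 16.2, 185 and 65.3 in the 3 JP livers and 77.6, 49.2 and 103 in the SM livers, then 1.81, 6.62 and 3.34 in the PL livers and 11.5, 4.96 and 3.70 in the BP livers. All 6 later livers lay below all 6 earlier ones, although JP replicate 1 was not far above BP replicate 1. On the log2(FPKM + 1) scale, PL differed from JP by -3.72 and BP from SM by -3.40 (standard error 0.70 for each). Standard errors here and below are from the limma fits of all 12 livers given further on. Such a fit pools the spread over the stages and moderates it towards that of other mRNAs. A widely spread member can thus have a smaller standard error than its own livers would give. The SD of this transcript was 1.72 over the JP livers and 1.04 pooled within stages. ENSGALT00000027063 kept 6.44% of its earlier mean FPKM.

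ENSGALT00000003855 was second by its gap of 2.22, and its livers did not separate by stage. Its FPKM was 24.6, 29.8 and 1.74 at JP, 15.4, 1.40 and 43.0 at SM, 0.474, 0.904 and 4.65 at PL and 0.741, 4.73 and 0.704 at BP. JP replicate 3 and SM replicate 2 lay within the range of the later livers, and PL replicate 3 and BP replicate 2 were higher than both of them. The standard error of a stage difference was 1.08, and the transcript was called in 0 of the 4 comparisons that cross from earlier to later stages.

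ENSGALT00000008177 was the most abundant member and held between 70.4% and 88.9% of the summed FPKM of the 28 mRNAs in a liver. Its FPKM was 8669, 5293 and 3610 at JP, 7748, 2739 and 4606 at SM, 406, 1505 and 1266 at PL and 1483, 1356 and 819 at BP. The stages on either side did not overlap, and PL replicate 1 was the lowest liver. Among all mRNAs it ranked between 25th and 82nd in the PL and BP livers, against between 9th and 20th in the JP and SM livers. It made up 0.0995% to 0.345% of all mRNA FPKM in PL and BP livers, against 0.393% to 1.61% in JP and SM livers. The difference of PL from JP was -2.58 and that of BP from SM was -1.96 on the log2(FPKM + 1) scale (standard error 0.56 for each).

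ENSGALT00000063740 had the next highest mean. Its FPKM was 325, 252 and 147 at JP, 191, 67.5 and 137 at SM, 22.5, 19.4 and 31.6 at PL and 41.6, 22.6 and 21.9 at BP. The highest later liver had 41.6 FPKM and the lowest earlier one 67.5 FPKM, so that the groups did not overlap. SM differed from JP by -0.92 on the log2(FPKM + 1) scale (standard error 0.39), the widest between these stages among the members, and this difference was not called. The order of the stage levels was JP, SM, BP and PL, of which BP and PL differed by 0.19, less than their spread.

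**Figure D3:**
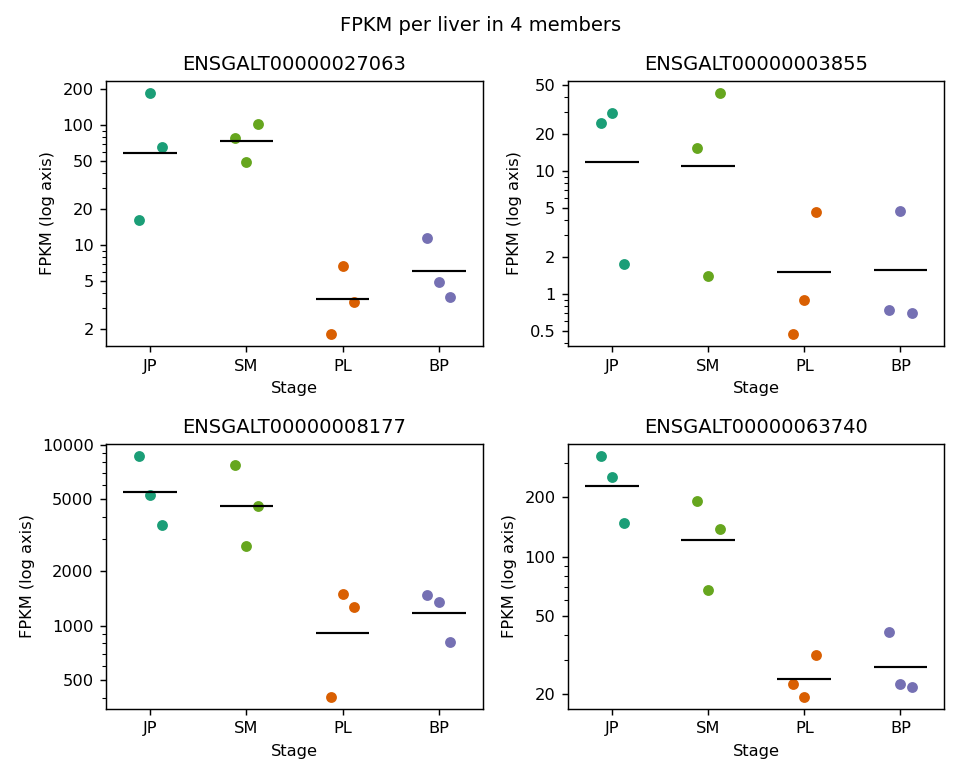
FPKM on a log axis in each liver (points) by stage for the members with the largest gap (upper row) and with the highest level (lower row). Lines mark the stage mean of log2(FPKM + 1) turned back to FPKM. In 3 of the 4 panels no PL or BP point reaches the lowest JP or SM point, and ENSGALT00000003855 is the exception.

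Among the earlier stages, the SM mean was below the JP mean for 16 members and above it for 12. The difference of SM from JP had a median of -0.09 over the members, against 0.22 over all mRNAs tested. ENSGALT00000023659 had 25.3, 28.1 and 43.4 FPKM at JP, 15.9, 15.4 and 23.3 FPKM at SM, 3.83, 4.49 and 6.93 FPKM at PL and 3.64, 5.51 and 13.3 FPKM at BP. All its SM livers lay below all its JP livers and above all later ones. ENSGALT00000031228 had the opposite order, with 12.8, 23.8 and 12.8 FPKM at JP, 34.2, 31.9 and 18.9 FPKM at SM, 4.06, 2.80 and 4.00 FPKM at PL and 9.78, 2.79 and 11.1 FPKM at BP. Its SM mean was the higher, but its SM and JP livers overlapped. ENSGALT00000046214 had 7.64, 0.706 and 2.30 FPKM at JP, 9.88, 1.70 and 6.88 FPKM at SM, 0.211, 0.181 and 1.09 FPKM at PL and 0.384, 0.943 and 0.750 FPKM at BP. Here JP replicate 2 lay among the later livers.

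Among the later stages, the BP mean was above the PL mean for 23 members and below it for 5. The difference of BP from PL had a median of 0.22 over the members, against 0.19 over all mRNAs tested. ENSGALT00000061556 showed the widest of these differences, 0.98, with 195, 108 and 185 FPKM at JP, 215, 171 and 242 FPKM at SM, 7.28, 24.0 and 66.1 FPKM at PL and 38.7, 37.9 and 67.5 FPKM at BP. Its PL livers were widely spread, and all its earlier livers lay above all later ones. ENSGALT00000026619 stood at the other end with a difference of -0.17, with 5.71, 3.87 and 4.98 FPKM at JP, 5.23, 3.99 and 6.32 FPKM at SM, 1.27, 1.97 and 1.45 FPKM at PL and 2.42, 0.514 and 1.23 FPKM at BP. ENSGALT00000045694 followed with -0.14, with 8.43, 11.5 and 6.78 FPKM at JP, 10.8, 8.24 and 8.92 FPKM at SM, 2.04, 3.09 and 6.62 FPKM at PL and 2.31, 4.39 and 2.94 FPKM at BP. In both, the BP and PL livers overlapped and no later liver reached an earlier one.

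For 18 of the 28 members, all 6 PL and BP livers lay below all 6 JP and SM livers. This held for 253 of the 16703 mRNAs tested (1.51%), and since the choice used these livers, nothing is read from the higher share. In the 10 members with overlap, BP replicate 2 and BP replicate 3 lay above the lowest earlier liver in 6 members each, PL replicate 3 in 5, BP replicate 1 and PL replicate 2 in 2 each and PL replicate 1 in 1. From the other side, JP replicate 3 lay below the highest later liver in 5 members, SM replicate 1 and SM replicate 2 in 3 each, JP replicate 2 in 2 and JP replicate 1 and SM replicate 3 in 1 each.

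The members varied more within a stage than most mRNAs. The SD within stages, pooled over the 4 stages, had a median of 0.54 over the members on the log2(FPKM + 1) scale (range 0.17 to 1.61). It was 0.22 over all mRNAs tested and 0.25 over the 11038 tested mRNAs whose mean lies within the range of the members, and 27 of the 28 members exceeded the last value. The gap was at least 2 times the SD of its member for 20 members and less for 8. The stage means used by the rule come from the same livers as this SD. A wide spread makes a large difference between such means more likely, so the choice can favour mRNAs of high SD. Nothing is therefore read from the higher SD of the members, and no test of this spread was made.

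Livers of 1 stage also differed across the members together. PL replicate 3 was above its stage mean in 22 of 28 members, with a median deviation of 0.40 against 0.16 over all mRNAs tested. SM replicate 3 was likewise above in 22 members, with a median deviation of 0.29 against 0.02 over all mRNAs tested, and SM replicate 2 was above in 5, with -0.25 against 0.02. PL replicate 1 was above in 4 members, with -0.24 against -0.14. The scaling factor was 1.04 in PL replicate 3 against 0.69 and 0.79 in the other PL livers, and its part in these deviations was not tested. Over the 378 pairs of members, the deviations from stage means over the 12 livers had a median Pearson's r of 0.22, or 0.14 after median-ratio scaling, and 266 pairs were above 0. The members share these libraries and their scaling, so the value is only a description.

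The stages were then compared in limma on log2(FPKM + 1), with all 12 livers in 1 fit and a call at an adjusted p under 0.05 (Benjamini-Hochberg over 16703 mRNAs) and a fold change of at least 1.5. PL was called lower than JP for 24 of the 28 members (12.6% of all mRNAs tested) and lower than SM for 24 (25.8% of all). BP was called lower than JP for 21 (6.39% of all) and lower than SM for 11 (0.700% of all). In these comparisons 0 members were called higher, where 6.58% of all mRNAs were called higher at PL than at JP, 3.43% at PL than at SM, 16.4% at BP than at JP and 0.461% at BP than at SM. All 4 comparisons were used by the choice, and the shares over all mRNAs stand beside the counts as background only. Of the members, 10 were called lower in all 4 comparisons, 11 in 3, 2 in 2, 3 in 1 and 2 in none, where 21 of all mRNAs (0.126%) were called lower in all 4.

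Among these 4 comparisons, the call of BP against SM changed most between fits. Its 11 members became 2 without SM replicate 3 or without BP replicate 2, 4 without SM replicate 1, 5 without SM replicate 2, 6 without JP replicate 3 or BP replicate 1 and 7 without JP replicate 1 or JP replicate 2. In a fit of the 6 SM and BP livers alone the count was 4. It rose to 13 without PL replicate 1 and to 15 without PL replicate 3. Over all mRNAs, the lower calls went from 117 to 41 without SM replicate 3 and to 57 without BP replicate 2. They were 50 in the fit of 6 livers and 293 without PL replicate 3, so the calls over all mRNAs changed too. The members' count fell by the larger share without SM replicate 3 or BP replicate 2, and rose by the smaller share without PL replicate 3. Between SM and JP, 1 member was called lower at SM (4.32% of all mRNAs) and 0 higher (20.9% of all). Between BP and PL, limma called 0 members in either direction (18.8% of all mRNAs higher and 3.25% lower at BP), and 0 members had an unadjusted p under 0.05. Without PL replicate 3 the members called were 3 and without BP replicate 2 they were 2, all of them higher at BP. Of all 16703 mRNAs, these fits called 4116 and 3105 higher at BP, in the same order. The rule kept SM and JP, and BP and PL, less than 1 apart in the members. It thus favours few calls in these comparisons, and nothing is read from the low counts. For a single transcript, 2 stages of 3 livers allow no two-sided exact permutation p below 0.1.

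The median of all mRNAs differed between comparisons too. The median difference over the mRNAs tested was -0.04 for PL minus JP, -0.08 for BP minus SM, 0.14 for BP minus JP and -0.29 for PL minus SM, against -1.81, -1.47, -1.56 and -1.76 over the members, in the same order. Median-ratio scaling, which brought the median of all mRNAs to between -0.02 and 0.04 in these comparisons, gave -1.76, -1.30, -1.70 and -1.37 for the members. All 28 members were lower in each of the 4 comparisons on both scales. Between SM and JP, however, the members' median went to -0.45 with scaling, and 24 in place of 16 members were lower at SM. For BP minus PL it went to -0.02, with 15 members lower at BP in place of 5. The higher level at BP than at PL in most members thus held on the deposited scale only.

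After this scaling, the lower and higher calls over all mRNAs were 1613 and 1635 for PL minus JP (2098 and 1099 as deposited), 74 and 94 for BP minus SM (117 and 77), 1894 and 1973 for BP minus JP (1067 and 2745), 1775 and 1773 for PL minus SM (4311 and 573), 1889 and 1871 for SM minus JP (722 and 3491) and 1511 and 1703 for BP minus PL (543 and 3132). The members called lower were 23 for PL minus JP, 8 for BP minus SM, 22 for BP minus JP, 18 for PL minus SM and 3 for SM minus JP.

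Membership itself was followed across choices of livers and scale. When each liver was left out in turn, the rule found between 22 and 38 mRNAs, of which between 20 and 27 were among the 28. Of the members, 8 met the rule in all 12 of these choices, 14 in at least 11, and no member in fewer than 7. After median-ratio scaling 19 mRNAs met the rule, 17 of them members. Of the other 11 members, 8 then had a gap under 1 (the lowest 0.66) and in 3 a pair of stages had moved 1 or more apart. ENSGALT00000063740 and ENSGALT00000023659 were among the last, while ENSGALT00000026619 and ENSGALT00000045694 had gaps of 0.85 and 0.71. ENSGALT00000027063 kept a gap of 3.22 and ENSGALT00000008177 a gap of 1.76.

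A liver that took no part in the choice gives a reading the rule did not use. For each liver, mRNAs were chosen on the other 11. The liver was said to be on its side when its value lay past a midpoint towards its own pair of stages. For the chosen mRNAs this midpoint lay between the lower of the JP and SM means and the higher of the PL and BP means. The liver was on its side in 280 of 353 readings (79.3%). For all mRNAs tested, with the midpoint between the mean of PL and BP and the mean of JP and SM, the share averaged 58.5% over the livers (46.7% to 70.5%). The share of the chosen mRNAs was above that of all mRNAs in 12 of 12 livers. All mRNAs were read with a different midpoint, with no least gap and in either direction. The choice by a gap of at least 1 thus favours the chosen mRNAs, and nothing is read from their higher share. The share of the chosen mRNAs was highest in PL replicate 2 (96.3%) and PL replicate 1 (96.0%) and lowest in BP replicate 3 (57.9%) and PL replicate 3 (65.7%). With median-ratio scaling it was 82.7%. The 12 choices share livers and most of their mRNAs, so no p is given.

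**Figure D4:**
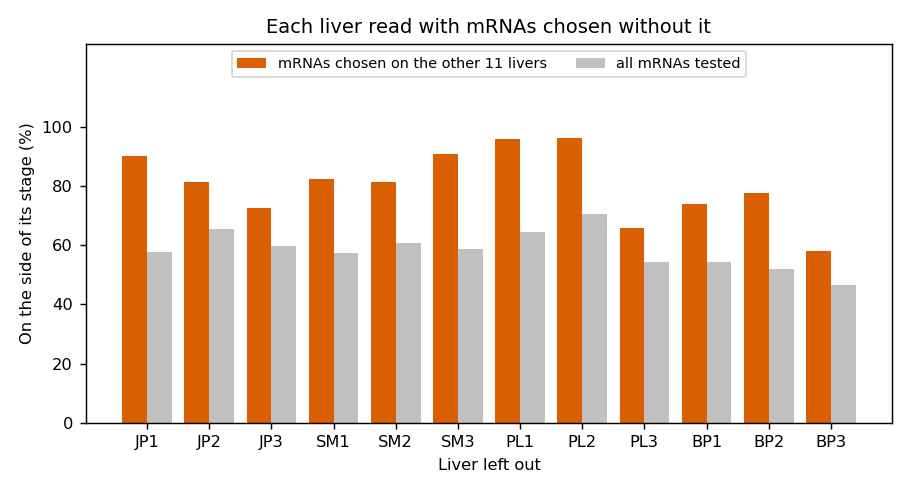
Share of mRNAs (y axis, %) for which the liver left out (x axis) lay on the side of its own pair of stages. Dark bars are the mRNAs chosen on the other 11 livers and pale bars all mRNAs tested. The dark bar is the taller in all 12 livers, which the choice by a gap of at least 1 favours. It runs from 57.9% in BP replicate 3 to 96.3% in PL replicate 2.

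The comparison of PL with JP and that of BP with SM share no liver, so a list from one could be read in the other. PL was at least 1 below JP on the log2(FPKM + 1) scale for 866 mRNAs (5.18% of those tested), and BP was at least 1 below SM for 247 (1.48%). The lists had 76 mRNAs in common, 8.78% of the first and 30.8% of the second, and the 28 members are among them by their rule. The first list holds 11 mRNAs (1.27%) that were instead at least 1 higher at BP than at SM, where 172 of all 16703 mRNAs tested were. Over its 866 mRNAs the median of BP minus SM was -0.22, against -0.08 over all mRNAs tested, and the BP mean was below the SM mean for 71.5%, against 65.3% of all. With median-ratio scaling the common mRNAs were 49, which is 7.57% of the first list, where 0.988% of all mRNAs were at least 1 below SM at BP. Most mRNAs that were at least 1 lower at PL than at JP were thus not at least 1 lower at BP than at SM. An mRNA of the first list needs a mean of at least 1 FPKM at JP, while those tested include lower ones. The shares of the list and of all mRNAs are therefore of unlike sets, and nothing is read from their difference.

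**Figure D5:**
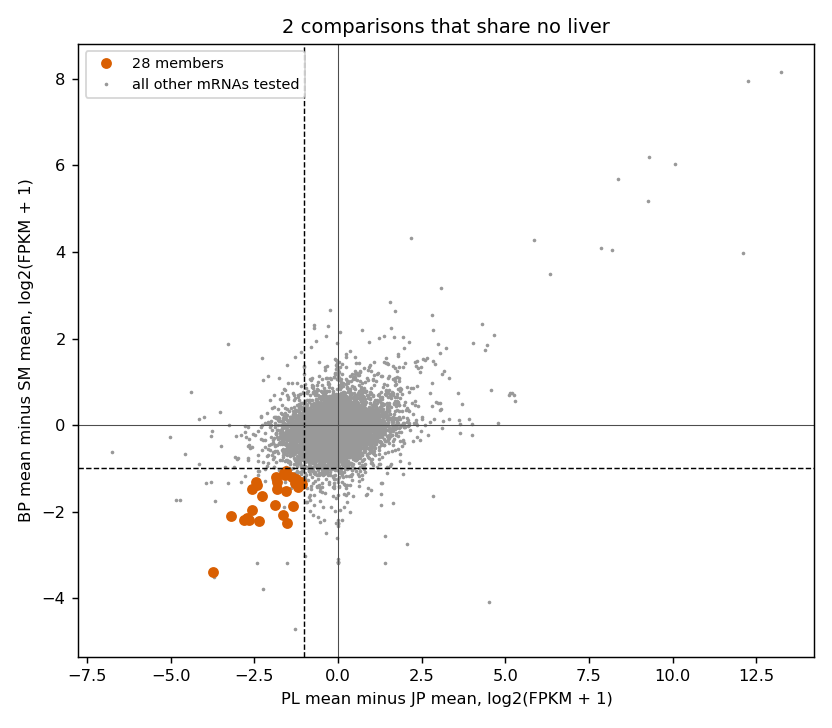
PL mean minus JP mean (x axis) and BP mean minus SM mean (y axis) on the log2(FPKM + 1) scale for the 28 members (large points) and all other mRNAs tested (small points). Broken lines mark -1, and the members lie beyond both by their rule, where 76 of the mRNAs tested are found.

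The lncRNA table, which did not enter the choice, was searched with the same rule. It was met by 1 of 16930 lncRNAs (0.00591%), against 0.153% of mRNAs. These shares depend on level, since a transcript under 1 FPKM cannot meet the rule, and 6254 of the lncRNAs were above 0.1 FPKM in at least 3 livers. TCONS_00233135 had 1.80, 3.62 and 1.89 FPKM at JP, 2.26, 2.35 and 5.15 FPKM at SM, 0.00599, 0 and 0.403 FPKM at PL and 0, 0 and 0.0142 FPKM at BP. No later liver reached 1 FPKM and no earlier one was under it, and this transcript was listed at 0 in 3 of the 6 later livers. PL differed from JP by -1.58 and BP from SM by -2.02 on the log2(FPKM + 1) scale (standard error 0.27 for each). The rule picked this lncRNA by the same values, so they are a description and support nothing. With 0.1 in place of 1 before the logarithm 47 lncRNAs (0.278%) met the rule, against 79 mRNAs (0.433%). With median-ratio scaling 3 lncRNAs did, without BP replicate 1 also 3, and without SM replicate 3 or BP replicate 2 it was 2. The mirrored rule was met by 4 lncRNAs.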

How the data were processed

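Strand-specific libraries of 12 livers, 3 hens at each stage, were sequenced by the authors, who mapped cleaned reads to Gallus gallus-5.0 with HISAT2 2.1.0 and quantified transcripts with StringTie 1.3.3. The deposited values are FPKM, in 1 table of mRNAs above 0.1 FPKM in at least 1 liver and 1 of lncRNAs. FPKM keeps no read counts of a transcript, so no counting interval is given. The authors list the clean reads of each library, and these were not used here. All value columns were matched to livers by name (0 left out).

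Members were found on log2(FPKM + 1). limma 3.58.1 in R 4.3.3 was fitted to mRNAs above 0.1 FPKM in at least 3 livers, with a mean for each stage. Variances were moderated with a trend on level, and Benjamini-Hochberg adjustment was used. The standard errors given are the moderated ones. The fit was also run on simulated data with independent noise and no library sets, which cannot tell how the sets affect it. Counts, medians and the left-out readings used numpy 2.4.6 and pandas 2.3.3 under Python 3.11.15. Alternatives were 0.1 added before the logarithm, median-ratio scaling, other filters, a gap of 1.5, no trend, fits of 2 stages, a replicate block and each liver left out. Those for overlap, the mirrored rule and single gaps were chosen after the data were seen.

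Transcripts named are the 2 members with the largest gap, the 2 with the highest FPKM and the extremes of SM against JP and BP against PL. The members, lists and rules were chosen with earlier results of these data known. Gene lists and cell type markers by symbol were not analysed here.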

Additional observations from a re-analysis of the deposited data

How the results depend on the processing

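The number of mRNAs that met the rule was 79 with 0.1 in place of 1 before the logarithm and 9 with a gap of at least 1.5, and between 22 and 38 without each liver in turn. Without each liver, the members called lower were between 18 and 23 for PL minus JP and 15 and 22 for BP minus JP. They were between 19 and 25 for PL minus SM and 2 and 15 for BP minus SM. In the fits of 6 livers they were 17 for PL minus JP and 4 for BP minus SM. Such fits gave 21 for BP minus JP and 24 for PL minus SM. The choice of members favours such calls, so these counts do not show stability. Over all 16703 mRNAs tested, the lower calls without each liver were between 1473 and 3136 for PL minus JP and 829 and 1198 for BP minus JP. They were between 3211 and 5604 for PL minus SM and 41 and 293 for BP minus SM. In the fits of 6 livers they were 1117 for PL minus JP and 50 for BP minus SM. Such fits gave 1084 for BP minus JP and 3864 for PL minus SM. For SM minus JP the members called in either direction were 0 with 0.1 added and without a filter, 3 with median-ratio scaling, 2 with the replicate block and between 0 and 2 without each liver, and for BP minus PL between 0 and 3. Over all mRNAs, the lower and higher calls for SM minus JP were 815 and 4580 with 0.1 added. They were 703 and 3439 without a filter, 1889 and 1871 with scaling and 727 and 3465 with the block. Without each liver they were 551 to 770 and 2787 to 3678, and for BP minus PL 380 to 580 and 2327 to 4116. mRNAs at least 1 lower in both PL minus JP and BP minus SM numbered 242 with 0.1 added, 49 with median-ratio scaling and between 64 and 101 without each liver. lncRNAs that met the rule numbered 47 with 0.1 added, 3 with median-ratio scaling and between 1 and 3 without each liver. Fewer livers estimate the spread in the fits of 6, and the cause of these changes was not tested. All 140 gaps of the 10 named members under alternatives stayed above 0, and 5 of the 10 members had a gap under 1 in some alternative. The members were chosen by a gap of at least 1 in these livers, so gaps above 0 do not show stability.

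Replicate numbers did not pair the livers. Same-numbered livers of different stages had correlations of their deviations between -0.11 and 0.07 over 18 pairs, and 1 of 12 livers correlated best with its own number. With the replicate block the members called lower were 24 for PL minus JP, 10 for BP minus SM, 21 for BP minus JP and 24 for PL minus SM. Over all 16703 mRNAs tested, the lower calls with this block were 2094, 86, 1061 and 4296, in the same order. Over all mRNAs, BP was called lower than SM for 117, for 50 in the fit of 6 livers and for between 41 and 293 without each liver. FPKM without counts leaves the precision of low values unknown.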

Other observations

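Outside the members, 11 further mRNAs were called lower in all 4 comparisons of PL and BP with JP and SM by limma. The gap of 8 of them was under 1, with the highest at 0.99, and in the other 3 a pair of stages differed by 1 or more. The lowest gap among the 11 was 0.65. Higher at PL than at JP by at least 1 were 599 mRNAs and higher at BP than at SM by at least 1 were 172, with 77 in common.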
